A study of Caenorhabditis elegans with 2 samples.

Results

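The binding of the transcription factor PAG-3 was examined at 6 genes of Caenorhabditis elegans: lin-35, eel-1, atx-2, mex-1, egl-30 and unc-115. The genes were chosen by their pooled signal value: each carried a reproducible PAG-3 region at its promoter in chromatin immunoprecipitation with sequencing (ChIP-seq). A region was placed at a promoter when its summit lay no more than 1000 bp upstream and 200 bp downstream of where a transcript starts. By this rule 222 of 19973 protein-coding genes carried a region of the authors' list past their threshold of the irreproducible discovery rate (IDR), which is 1.11% of genes, and the 6 regulators of development were taken from these 222. The 6 genes held 8 of the 327 IDR regions in build ce11, since eel-1 and egl-30 each had a pair. Of the 327 regions, 168 lay at a promoter. The genes were selected on the presence and the pooled signal value of these 8 regions, so both are given as a description and without a test.

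The animals were hermaphrodites of strain OP154, with the genotype unc-119(ed3) III; wgIs154. Both libraries therefore shared the unc-119(ed3) allele and the integrated wgIs154 transgene, from which PAG-3 is made with GFP and FLAG tags at its C-terminus. Eggs were obtained by bleaching, and late embryos were taken 4 hours after this synchronisation, with the age itself given as unknown. Whole embryos were used, the chromatin was sheared by sonication, and by the sample description an antibody against GFP was used for the precipitation. The antibody field of the labels reads pag-3 instead, and the description was followed here. There was 1 group of 2 biological replicates. No embryos without the tag and no input library were analysed here, so a region shows enrichment over the authors' own control and no comparison between conditions could be made. Signal from a whole embryo averages over all of its cells, so the number of cells with bound PAG-3 and the binding in each of them cannot be told apart. The lists gave no read counts, and the depth behind each value is unknown.

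PAG-3 is a zinc-finger protein of the GFI family, which in mammals binds DNA at sites with an AATC core and mostly represses transcription. In worms it is known for the fates it gives to neurons, such as the BDU interneurons and the touch receptor cells. The 6 genes act in several parts of development. LIN-35 is the worm counterpart of the retinoblastoma protein and, with its partners of the DREAM complex, keeps cell cycle and germline genes silent. EEL-1 is a ubiquitin ligase of the HECT type, which attaches ubiquitin to proteins and so marks many of them for destruction. ATX-2 is the worm ataxin-2, an RNA-binding protein that acts in translational control, and MEX-1 is a maternal CCCH zinc-finger protein needed for the fates of early blastomeres and of the germline. EGL-30 is the alpha subunit of the G protein Gq and promotes transmitter release, and UNC-115 is an actin-binding protein related to abLIM that acts in axon guidance.

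The sequences under the summits of 4 of the genes are shown because they differ in kind: a repeat at eel-1 and short words in otherwise unique sequence at atx-2, mex-1 and unc-115. They were read from the RefSeq assembly WBcel235, which is ce11, on the strand of the gene and from 5′ to 3′. Each covers the summit and 100 bases to each side of it, except that of atx-2, whose 164 bases end before the first transcript start. At eel-1 the windows were chrIV:3050535-3050735 for the stronger region and chrIV:3050740-3050940 for the weaker one, both on the minus strand, and capitals mark a 12-base word or its reverse complement. On the plus strand, the windows were chrIII:10461225-10461388 for atx-2, chrII:11967626-11967826 for mex-1 and chrX:10146683-10146883 for unc-115. Capitals mark GCGCGC at atx-2, the reverse complement of AATCAC at mex-1, and AGAGAG and GCGCGC at unc-115.
eel-1 stronger region: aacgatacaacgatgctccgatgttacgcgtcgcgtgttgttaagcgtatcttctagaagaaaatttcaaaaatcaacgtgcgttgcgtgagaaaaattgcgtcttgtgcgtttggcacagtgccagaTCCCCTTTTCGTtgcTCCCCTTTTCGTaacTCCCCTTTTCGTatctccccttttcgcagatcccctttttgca
eel-1 weaker region: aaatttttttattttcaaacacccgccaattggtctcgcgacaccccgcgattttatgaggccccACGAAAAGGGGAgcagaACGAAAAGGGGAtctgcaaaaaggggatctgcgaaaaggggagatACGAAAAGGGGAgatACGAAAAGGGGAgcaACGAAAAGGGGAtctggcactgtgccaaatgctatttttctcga
atx-2: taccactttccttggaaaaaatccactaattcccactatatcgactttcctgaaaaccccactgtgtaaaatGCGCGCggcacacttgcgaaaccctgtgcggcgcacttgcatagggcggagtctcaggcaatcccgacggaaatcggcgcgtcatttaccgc
mex-1: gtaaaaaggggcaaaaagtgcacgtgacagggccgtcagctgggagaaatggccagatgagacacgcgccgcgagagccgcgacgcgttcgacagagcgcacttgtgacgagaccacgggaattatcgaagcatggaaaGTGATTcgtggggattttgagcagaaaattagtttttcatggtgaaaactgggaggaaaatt
unc-115: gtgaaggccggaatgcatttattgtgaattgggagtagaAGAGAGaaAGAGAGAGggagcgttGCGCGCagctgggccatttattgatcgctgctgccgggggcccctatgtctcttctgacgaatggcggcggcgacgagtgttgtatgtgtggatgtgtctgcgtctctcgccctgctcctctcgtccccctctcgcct

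The 8 regions fell into 3 levels of signal that could be told apart in the replicates only in part. The signal value is the authors' own measure of enrichment for a region, which the lists give per replicate and after pooling, and ranks run from 1 for the strongest of the 21336 pooled candidates. The stronger eel-1 region had a pooled signal of 265 at rank 8 and the atx-2 region 234.9 at rank 11. The weaker eel-1 region followed with 162 at rank 29, lin-35 with 158 at rank 33 and mex-1 with 139 at rank 59. The unc-115 region had 98.4 at rank 199, and the egl-30 regions had 90.4 and 90.3 at ranks 257 and 258.

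In the replicates, the stronger eel-1 region had 113 in replicate 1 and 148 in replicate 2, a mean of 130 ± 24.7 (SD, n = 2), and the atx-2 region had 96.7 and 136, a mean of 116 ± 27.8. These means differed by less than the spread between replicates, while both replicates of both regions lay above every replicate value of the other 6 regions. The highest of these, taken by the nearest summit, was 85.3 at the weaker eel-1 region, and a farther region of replicate 2 at lin-35, with 90.9, also lay below them. The middle regions averaged 70.7 ± 8.32 at lin-35, 70.2 ± 21.4 at the weaker eel-1 region and 69.6 ± 7.52 at mex-1, and so did not differ beyond their spread. The lowest averaged 49.0 ± 11.3 at unc-115, 44.9 ± 3.93 at the stronger egl-30 region and 44.9 ± 8.40 at the weaker one. Both replicates of lin-35 and of mex-1 lay above those of the lowest regions, whereas replicate 1 of the weaker eel-1 region, at 55.03, lay below the 57.0 of replicate 1 at unc-115. Replicate 2 was the higher in 6 of the 8 regions, and replicate 1 was the higher at lin-35 and unc-115. Among the 160 other IDR promoter peaks, replicate 1 was the higher in 55, or 34.4%.

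**Figure D1:**
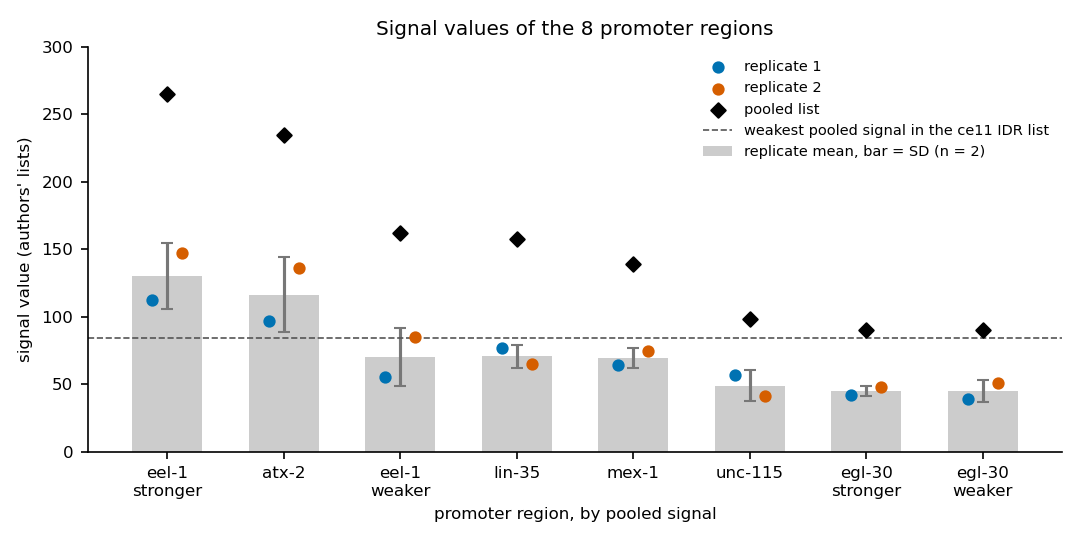
Signal value (authors' lists, linear axis) of the 8 promoter regions in the pooled list (diamonds) and in each replicate (points), with bars for the replicate mean and its SD (n = 2); the dashed line is the weakest pooled signal in the ce11 IDR list. The stronger eel-1 region and atx-2 stand above the others in both replicates, and the egl-30 regions at 90.4 and 90.3 lie nearest to the dashed line.

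Against the whole list, the regions ranged from the top of the IDR list to its weaker end. The weakest IDR regions had pooled signals of 83.98, at C07A9.9, and 83.97, at no promoter, and the strongest candidates outside the list had 83.95 and 83.92, neither at a promoter. The list thus ends at a limit of signal, and the egl-30 regions lay closest to it among the 8. The peaks next to each region in rank, among those at promoters, show what other genes shared its level of signal. The stronger eel-1 region stood between sre-23 at 285 and the atx-2 region, and atx-2 was followed by T13C5.6 at 208. The lin-35 region stood between cfim-2 at 160 and the ribosomal protein gene rpl-3 at 156. The mex-1 region stood between Y62F5A.12 at 140 and the peak shared by dnj-28 and supr-1 at 134. The unc-115 region stood between the peak shared by the splicing factor genes rsp-1 and rsp-2 at 99.5 and T06E4.7 at 97.8. The egl-30 regions adjoined each other, with tag-266 and tag-267 at 90.9 above them and F56G4.6 and wbp-4 at 89.9 below.

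**Figure D2:**
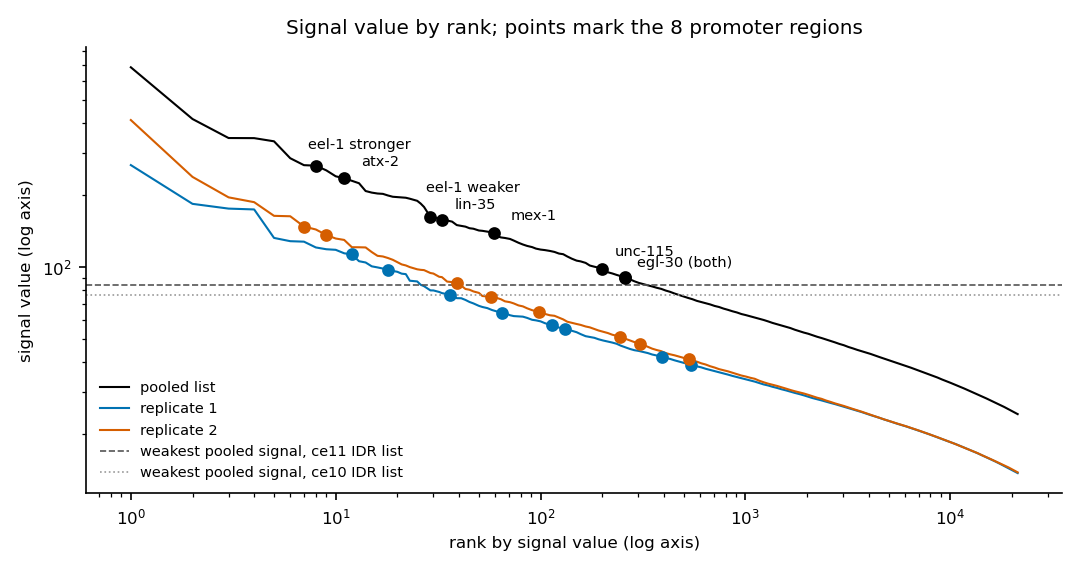
Signal value against rank (both axes log) for the pooled list (black), replicate 1 (blue) and replicate 2 (orange), with points at the 8 promoter regions and lines at the weakest pooled signal of the ce11 and ce10 IDR lists. The pooled points run from rank 8 to rank 258, and in replicate 2 the unc-115 point lies at rank 533.

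Each replicate alone placed most of the regions among its strongest. When as many regions as the IDR list holds, 327, were taken from each replicate, 6 of the 8 regions, or 75%, overlapped one of them in both, against 80 of the 160 other IDR promoter peaks, which is 50%. The signal that chose the regions sets this count, so nothing is read from it. Taken by the nearest summit in place of any overlap, the counts were 5 of 8, or 62.5%, and 80 of 160. The unc-115 region ranked 114 in replicate 1 and 533 in replicate 2. The stronger egl-30 region ranked 392 and 306, and the weaker one 543 and 245. The other 5 ranked 131 or better in both replicates.

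lin-35 (WBGene00003020) lies on the plus strand at chrI:5807709-5815637 and has 1 annotated transcript. Its IDR region spanned chrI:5807279-5807728 with the summit at 5807504, 205 bp upstream of the start, and had the highest −log10 q value in the list, 2.61, which 203 of the 327 IDR regions shared, among them all of the 8 but the egl-30 pair. The region sits between divergent genes: vps-51, which encodes a subunit of a tethering complex for vesicles, begins 213 bp from the same summit on the other strand. The summit lay between genes, and the ends of the region reached into both. In replicate 1 a single region overlapped it, with a signal of 76.6 at rank 36. In replicate 2 a pair overlapped it, 64.8 at rank 98 with its summit 36 bp away and 90.9 at rank 32 farther upstream, so the choice of partner decides the order of the replicates at lin-35. The nearest small RNA gene, the snoRNA gene C32F10.9, was 18216 bp from the summit.

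The other pooled candidates of the lin-35 locus were lower in signal. From 5000 bp upstream to the 3′ end it held 3 pooled candidates, 3 in replicate 1 and 4 in replicate 2. Of the others in the pooled list, the stronger had 32.4, with its summit in an intron of lin-35 and in an intron of C32F10.4 on the other strand. It was overlapped only in replicate 2, at 18.4. The weaker had 25.9 in a coding exon of hmg-3 at the 3′ end and was overlapped only in replicate 1, at 21.4. The promoter region was 4.86 times as strong as the stronger of these. With 0.232 candidates per kb, the locus was denser than 57.7% of protein-coding loci taken by the same rule, whose median was 0.174 per kb. The promoter region that chose the gene is counted in this density, so nothing is read from the comparison.

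eel-1 (WBGene00022069) lies on the minus strand at chrIV:3032713-3050104, with 8 annotated transcripts. Its stronger region spanned chrIV:3050410-3050859 with the summit at 3050635, 531 bp upstream of the first start. The weaker region spanned chrIV:3050793-3051029 with the summit at 3050840, 736 bp upstream, and overlapped the first. Both replicates held a pair of regions there too, with 113 and 55.03 in replicate 1 and 148 and 85.3 in replicate 2. No other protein-coding gene had either summit in its promoter window, and the nearest small RNA gene was 32310 bp away.

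Repeated sequence filled the eel-1 regions. In the assembly 85.1% of the bases of the stronger region and 79.3% of the weaker one were soft-masked as repeats, against 35.7% of the genome. The 160 other IDR promoter peaks had a median of 25.9% and an upper quartile of 44.1%. In 30 of the 160, or 18.75%, more bases were masked than not. Only 32.3% of the words of 36 bases in the stronger region occurred once in the genome, and 70.8% of those in the weaker one, whereas every such word of the other 6 regions was unique. The most frequent word of 36 bases occurred 62 times. The 12-base word in capitals above occurred 10 times in the 620 bp that the eel-1 regions span: 5 times on the opposite strand, from 400 to 492 bp upstream of the first start, and 5 times on the gene strand, from 668 to 760 bp upstream. The copies mirror each other, and the longest exact inverted copy ran over 83 bp with 222 bp between its arms. The stronger summit fell in the stretch between the arms and the weaker summit inside the farther arm. How reads from such repeats were placed is not given in the sources used here, and the part of the repeat in the signal was not tested.

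**Figure D3:**
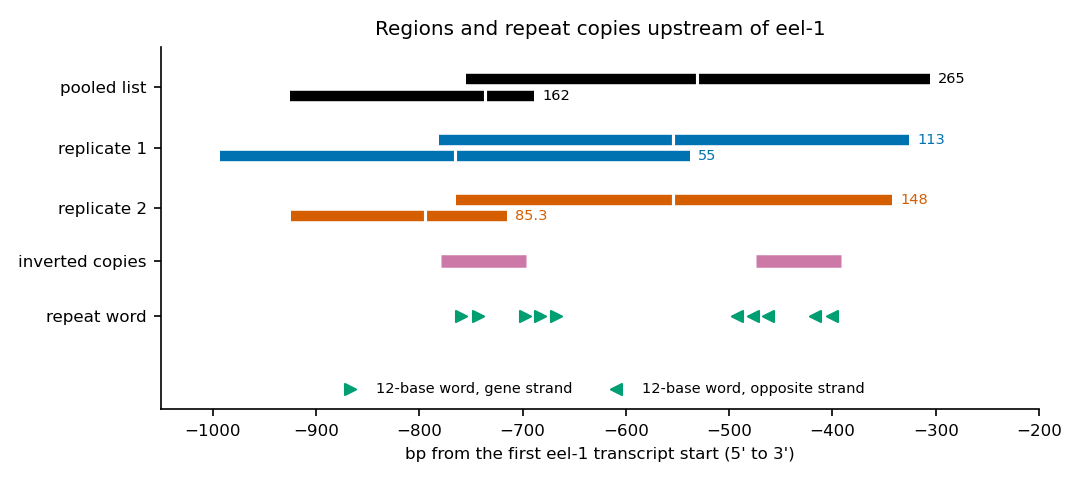
Position in bp from the first eel-1 transcript start of the pooled and replicate regions (bars, with the summit as a white mark and the signal value beside each), the arms of the 83 bp inverted copy and the copies of the 12-base word, with arrows for their strand. The copies stand in 2 facing groups of 5, and the stronger region holds 9 of the 10 copies and the weaker one 3.

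The word was counted across the genome after the eel-1 regions had been seen. It occurred 373 times in the 6 chromosomes, with 117 copies on chromosome IV and 12 on chromosome X. Its copies lay within 51 of the 21336 pooled candidates, 18 of them in the IDR list. With 3 or more copies there were 41 candidates, 14 of them in the IDR list. Of all 21336 pooled candidates, 327 were in the IDR list. Both eel-1 regions, from which the word was taken, are among the 18 and among the 14. None of the regions at lin-35, atx-2, mex-1, egl-30 or unc-115 held a copy.

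The body of eel-1 carried many weak candidates. The locus held 14 pooled candidates, 11 in replicate 1 and 12 in replicate 2, and its 0.625 candidates per kb were a higher density than that of 95.6% of protein-coding loci. This density counts the pair of IDR regions that chose the gene. The strongest of the 12 outside the IDR list had 69.0 at rank 688 and lay in a coding exon 8982 bp into the gene, with 37.4 in replicate 1 and 27.3 in replicate 2. A further exonic candidate had 53.4, with 14.4 in replicate 1 and 34.3 in replicate 2, and the weakest of the 12 had 24.3. Upstream, a candidate of 48.1 lay 108 bp from the pseudogene WBGene00235353, with 29.8 in replicate 1 and 15.97 in replicate 2. All 12 lay below the IDR limit in both builds.

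atx-2 (WBGene00000231) lies on the plus strand at chrIII:10461389-10468051, with 4 annotated transcripts. Its region was narrow, 250 bp at chrIII:10461185-10461434, while 307 of the 327 IDR regions had the usual length of 450 bp. The summit at 10461325 lay 64 bp upstream of the first start, and 774 bp upstream of ecps-1 on the other strand, which counts it in that promoter window too. The summits of both replicates lay close to it, 6 bp away in replicate 1 and 2 bp away in replicate 2. Of its bases 0.4% were soft-masked. The other 4 candidates of the locus had 24.7 to 43.1, and the strongest of these lay 630 bp upstream with 16.7 in replicate 1 and 32.9 in replicate 2. The promoter region was 5.45 times as strong, the largest such ratio among the 6 loci.

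mex-1 (WBGene00003228) lies on the plus strand at chrII:11968637-11972330, with 3 annotated transcripts. Its region at chrII:11967501-11967950 had the summit at 11967726, 911 bp upstream of the mex-1 start, which was the farthest of the 8. The summit was nearer to other genes on the other strand: W03C9.5 begins 182 bp away and rab-7, a small GTPase of late endosomes, 795 bp away. The region overlapped the 5′ end of W03C9.5, so the assignment to mex-1 rests on the width of the window. Replicate 1 had 64.3 and replicate 2 had 74.9, with summits 0 and 31 bp away. The locus held 4 pooled candidates, 3 in replicate 1 and 7 in replicate 2, and those outside the IDR list had 24.3 to 37.4. The stronger of these lay in the 3′ untranslated region of mex-1 with 17.3 in replicate 1 and 24.5 in replicate 2. The nearest small RNA gene, the snoRNA gene W03C9.9, was 6767 bp from the summit.

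egl-30 (WBGene00001196) lies on the plus strand at chrI:1835661-1841965, with 3 annotated transcripts, and was the only one of the 6 with an IDR summit downstream of a start. The stronger region, chrI:1835381-1835830, had its summit 55 bp upstream of the first start and 174 bp upstream of the small gene C53H9.4, and it overlapped the 3′ end of the ribosomal protein gene rpl-27. C53H9.4, at chrI:1835780-1835872 on the same strand, lies within egl-30, where its coding exon overlaps the 5′ untranslated region of egl-30. The weaker region, chrI:1836603-1837052, had its summit in the 5′ untranslated region, 177 bp downstream of the start of the second transcript. Their signals of 90.4 and 90.3 were nearly equal in the pooled list. Replicate 1 had 42.1 and 38.9 and replicate 2 had 47.6 and 50.8, so the order of the pair differed between replicates. Their −log10 q values were both 2.01.

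The third egl-30 region stood between the limits of the builds. It spanned chrI:1836841-1837290, overlapped the weaker region and had 77.1 at rank 456, with 47.3 in replicate 1 and 32.7 in replicate 2. In replicate 1 of ce11 it was thus stronger than either IDR region of the gene. In replicate 1 of ce10 the stronger IDR region had 47.05 at rank 250. The strongest replicate 1 region that overlapped the weaker IDR region in ce10 had 47.03 at rank 251, so this order was not seen there. The third region lay below the ce11 limit of 84.0 and above the ce10 limit of 76.3. The other candidates of the locus had 29.4 to 41.5, and the locus held 7 in the pooled list, 7 in replicate 1 and 8 in replicate 2. Its density of 0.619 per kb was above that of 95.4% of loci, but it counts the pair of IDR regions that chose the gene. The ncRNA genes M01D7.10 and M01D7.11 in its body lay 1032 and 1288 bp from the nearest pooled summit.

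unc-115 (WBGene00006839) lies on the plus strand at chrX:10146892-10153142, with 2 annotated transcripts. Its region at chrX:10146558-10147007 had the summit at 10146783, 109 bp upstream of the first start, and no other gene lay within the promoter window of that summit. Replicate 1 had 57.0 at rank 114 and replicate 2 had 41.0 at rank 533, the widest gap in rank between replicates among the 8. The locus held 4 pooled candidates and 6 in each replicate, and the 3 outside the IDR list had 31.3 to 46.1. Each of those 3 was overlapped in a single replicate. The strongest, 1758 bp upstream, was overlapped in replicate 2 at 31.5 and lay 22 bp from the tRNA gene WBGene00014318 and 17 bp from the ncRNA gene F09B9.7. A second tRNA gene in the body of unc-115, WBGene00014319, had no pooled summit within 1866 bp.

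**Figure D4:**
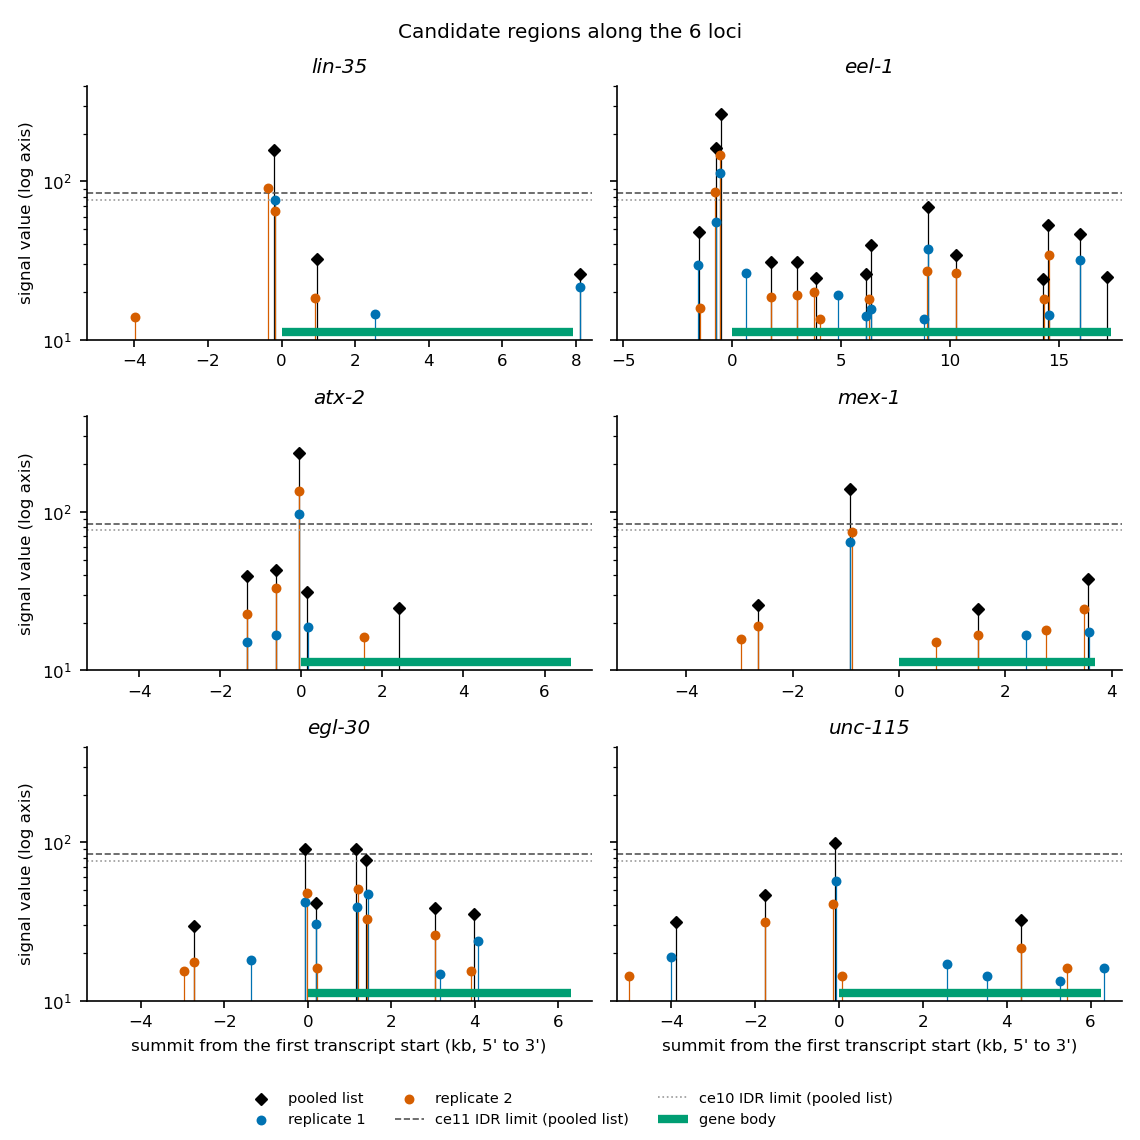
Signal value (log axis) of every candidate from 5000 bp upstream to the 3′ end of each gene, against the distance of its summit from the first transcript start (kb, direction of the gene), in the pooled list (diamonds) and the replicates (points), with the gene body in green and the IDR limits of both builds as lines. The pooled regions above the dashed line stand from 911 bp upstream to 1167 bp downstream of the first start, and at egl-30 the third region lies between the lines.

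Over the 6 loci, 37 pooled candidates were found, and 34 in replicate 1 and 41 in replicate 2. Of the 37, 22 were overlapped in both replicates, 2 in neither and the rest in a single replicate. The 8 IDR regions were all overlapped in both. The members' median density was 0.444 candidates per kb, against 0.174 over all 19973 protein-coding loci, and the rule that chose the genes added at least 1 candidate to each locus.

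Small RNA genes, which are common under PAG-3 regions elsewhere, were absent beside the 8 regions. None had a tRNA, snoRNA, snRNA, miRNA or other non-coding RNA gene within 100 bp of its summit, against 43 of the 160 other IDR promoter peaks, or 26.9%. The nearest was 1543 bp from the unc-115 summit. A summit in the promoter windows of more than 1 protein-coding gene was found in 4 of the 8 regions (at lin-35, atx-2, mex-1 and the stronger one at egl-30), or 50%, against 53 of the 160 others, or 33.1%. At egl-30 the other gene, C53H9.4, lies within egl-30 itself. The median distance from the summit to the nearest start of any protein-coding gene, which at mex-1 is that of W03C9.5, was 179.5 bp in the 8 regions, against 277 bp in the others. These shares are descriptions of a chosen set of 8 regions, and no difference from the others was tested.

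The summits of all 8 regions held more G and C than the genome average of 35.4%. Within 50 bp to each side of the summit the GC content was 66.3% and 53.5% at the egl-30 regions, 61.4% at unc-115, 60.4% at mex-1, 59.4% at atx-2, 48.5% and 44.6% at the eel-1 regions and 38.6% at lin-35. The median of the 8 was 56.4%, against 49.5% in the 160 other IDR promoter peaks, whose interquartile range was 45.3% to 54.5%. The lin-35 and stronger eel-1 regions thus lay below this range, and the regions of atx-2, mex-1 and unc-115 and the stronger one of egl-30 above it.

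**Figure D5:**
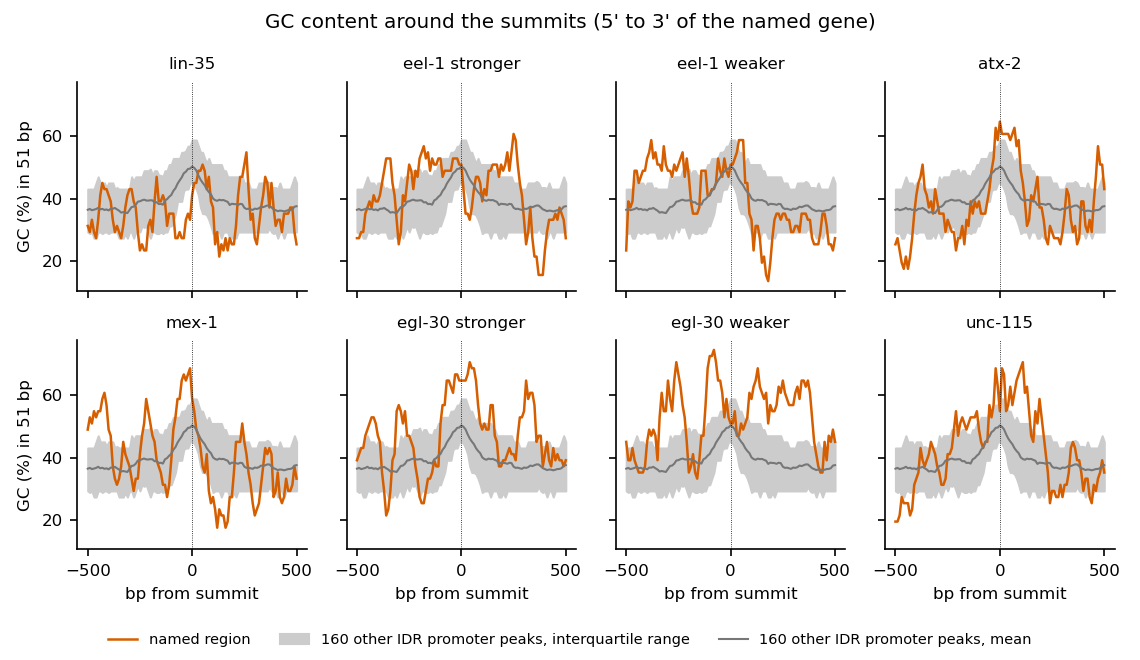
GC content (percent, in windows of 51 bp) against distance from the summit (bp, direction of the gene) for each of the 8 regions (orange), with the mean (grey line) and interquartile range (grey band) of the 160 other IDR promoter peaks. At the summit the windows held 64.7% at atx-2 and 41.2% at lin-35, where the mean of the others was 50.4%.

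Of the 8 regions, 1 held the AATCAC word of the GFI family no more than 50 bp from its summit: that of mex-1, from 39 to 44 bp downstream of the summit on the opposite strand. Counting both strands, it was present in 8 of the 160 other IDR promoter peaks, or 5%. Over all IDR windows it was present in 12 of 327, or 3.67%, and over the pooled candidates in 918 of 21336, or 4.30%. At lin-35 it stood just outside this window, 57 bp upstream of the summit on the gene strand. The word GCGCGC, which reads the same on both strands, was found in 2 of the 8 windows, at atx-2 and unc-115. Its share was 10.7% of the IDR promoter windows, 8.87% of all IDR windows and 2.16% of all pooled candidates. AGAGAG was found in 1 window, at the stronger egl-30 region. Its share was 14.3% of the IDR promoter windows, 16.2% of all IDR windows and 8.37% of all candidates. The copies at unc-115 lay across or outside the edge of the window. The words can overlap copies of themselves. A match describes the letters only, and no site of PAG-3 is inferred from it.

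The 8 regions were found in the ce10 lists with the same signal and the same rank. Coordinates were not converted between builds, and regions were matched by chromosome, length, summit offset and signal, which differed by at most 0.000103. In ce10 coordinates the eel-1 regions were chrIV:3050408-3050857 and chrIV:3050791-3051027, that of atx-2 was chrIII:10461088-10461337, that of mex-1 chrII:11967437-11967886, and that of unc-115 chrX:10146499-10146948. The ce10 region of lin-35 was chrI:5807282-5807731 and those of egl-30 were chrI:1835383-1835832 and chrI:1836605-1837054. The ce10 IDR list was longer, with 471 regions, and held 9 candidates of the 6 loci, the ninth being the third egl-30 region. The replicate lists differed more between the builds than the pooled ones. At lin-35 the region of replicate 2 with the nearest summit had 37.5 at rank 778 in ce10, against 64.8 at rank 98 in ce11, while the strongest overlapping region had 90.4 at rank 34 in ce10 and 90.9 at rank 32 in ce11. At the stronger egl-30 region replicate 1 had 47.1 at rank 250 in ce10 and 42.1 at rank 392 in ce11. At the stronger eel-1 region the ranks were 11 and 7 in ce10 and 12 and 7 in ce11.

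Genes of the pathways, processes or protein families of the 6 members were examined in 7 lists, chosen with earlier results of these data known. Without the members, 60 of the list genes had a pooled candidate in the promoter window and 41 had none, which is a share of 59.4%, against 30.9% of all protein-coding genes (6170 of 19973). An IDR summit was found at 2 of them, lin-61 and eat-16, a share of 1.98%, against 1.11% of all protein-coding genes. The candidates of the other 58 genes lay below the ce11 limit. The counts by list that follow include the members. The choice of the members fixed a candidate and an IDR region for each of them.

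Of the DREAM complex and synMuv genes, 12 of 18 had a candidate and 2 an IDR region, lin-35 itself and lin-61. The gene lin-61, which encodes a chromatin protein with MBT repeats, had 89.4 at rank 265, 37.7 in replicate 1 and 52.5 in replicate 2. Most of the list is of the DREAM complex or synMuv class B, but lin-8, lin-38 and lin-56 are of class A. Of these only lin-38 had a candidate, with 49.7. The E2F gene efl-1 had 30.3. Of 12 cell cycle genes, 8 had a candidate and none an IDR region, and the strongest were the inhibitor gene cki-1 with 51.2 and the cyclin E gene cye-1 with 39.3. Of 9 HECT-type ligase genes 7 were matched, 5 had a candidate, and after eel-1 the strongest were wwp-1 with 48.3 and hecd-1 with 31.2. Genes of RNA regulation with atx-2 had the lowest share, with 5 of 15, or 33.3%, carrying a candidate, atx-2 among them. This is near the 30.9% of all protein-coding genes. After atx-2 the strongest were ifet-1 with 48.2 and mex-3 with 33.01. Of 18 maternal and blastomere fate genes 9 had a candidate, and after mex-1 the strongest were the Notch ligand gene apx-1 with 64.8 and the kinase gene par-1 with 44.7.

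Signalling genes around egl-30 included candidates close to the IDR limit. Of 18 genes 13 had a candidate. The gene eat-16, an RGS protein that inhibits EGL-30, had an IDR region of 100.5 at rank 181, with 58.2 in replicate 1 and 49.0 in replicate 2, which is above the 90.4 of egl-30. The Go gene goa-1, which opposes egl-30, had 80.9 at rank 389, with 37.3 in replicate 1 and 36.7 in replicate 2, and so lay between the limits of ce10 and ce11. The G protein beta gene gpb-1 had 75.4 at rank 495, below both limits and nearer to that of ce10. Of 22 actin and axon guidance genes 16 had a candidate, and after unc-115 the strongest were unc-76 with 75.2 and unc-14 with 63.8, both of which act in axon outgrowth and transport.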

How the data were processed

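Per the labels, ChIP-seq of GFP-tagged PAG-3 was made on 2 biological replicates of late embryos, and the authors deposited an IDR list and candidate lists per replicate and pooled, each in ce10 and ce11. The signal value and the −log10 q value of each region are those of the deposited lists, and the p-value column, which held no values, was not used. Score and strand columns were not used. Enrichment in the deposited lists is over a control library that was not used here. Peak caller, aligner, IDR threshold and depth are not given in the sources used here.

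Regions were ranked by signal and matched between lists by at least 1 bp, taking the nearest summit as the replicate partner. Genes came from Ensembl release 115 of WBcel235 and sequence from RefSeq. Promoter assignment was tested on simulated regions. The members and the gene lists were chosen with earlier results of these data known. Named genes were the members, genes whose start lay within 1000 bp of a promoter summit or that overlapped the region, list genes other than members with an IDR region or else the 2 strongest of a list, the regions at the limit of the IDR list, and the nearest neighbours in rank. Genes beside other candidates of the loci, goa-1, gpb-1 and efl-1 were named after their values were seen. Of the list symbols, 2 were not matched. No test was made, since 1 group of 2 replicates allows none between samples and the signal chose the genes. Alternatives covered windows, overlap rules, list lengths, single replicates and ce10. The repeat, uniqueness, soft-masking, and the words AGAGAG and GCGCGC were added after the data were seen. Python 3.11.15, numpy 2.4.6, pandas 2.3.3 and matplotlib 3.10.9 were used.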

Additional observations from a re-analysis of the deposited data

How the results depend on the processing

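The count of 6 genes depends on the promoter window, the list and the replicate. With a window of 500 bp upstream to 100 bp downstream 4 remained, without eel-1 and mex-1, and with 2000 bp upstream all 6 did. In the stronger part of the IDR list, 163 regions, 4 remained, without egl-30 and unc-115. With the 327 strongest regions of a single replicate the count was 5 without replicate 1, where unc-115 was lost, and 5 without replicate 2, where egl-30 was lost. Promoter regions shared with another protein-coding gene numbered 4, and 2 under the narrower window. List genes with an IDR region numbered 2, lin-61 and eat-16, and 1 under the narrower window, which kept lin-61 and lost eat-16. They numbered 3 with 2000 bp upstream, where oxi-1 was added. They numbered 2 in each single replicate: lin-61 and eat-16 without replicate 1, but eat-16 and gpb-1 without replicate 2, so lin-61 was lost there. The AATCAC word was found at 1 region within 50 bp of the summit, at 0 in a window of 51 bp, at 2 within 100 bp of the summit and at 2 over the whole region. The count of 5 genes overlapping the 327 strongest regions of both replicates ran from 4, with the 100 strongest, to 6, with the 1000 strongest. It was also 4, without egl-30, under a stricter rule for overlap and with summits within 100 bp. The 37 candidates of the loci ran from 34 to 42 with other locus widths, and were 41 and 34 in the single replicates. No small RNA gene lay within 1000 bp of a summit under any distance tried. Each replicate signal lay below the pooled signal of its region and the cause was not tested. Depth is unknown, so no interval could be given.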

Other observations

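The repeat word found upstream of eel-1 also lay under other strong PAG-3 regions. These regions were chosen after their values were seen. The strongest IDR region with a copy was nearest to M01F1.9, with 416 at rank 2 and 1 copy in its bases. Regions with 9 copies lay nearest to Y62F5A.12, with 203 at rank 16, and to supr-1, with 117 at rank 109, and regions with 10 copies lay nearest to C26B2.7, with 133 at rank 64, and to duo-3, with 131 at rank 69. Like eel-1, Y62F5A.12 and rps-24 each had a pair of IDR regions with copies. The region nearest to supr-1 was likewise overlapped by an IDR region nearest to dnj-28, with 134 at rank 63 and 1 copy. Across the genome 75 clusters of 3 or more copies were counted, with at most 8 copies in a row each standing within 100 bp of the next. A pooled candidate overlapped 49 of the 75 and an IDR region 21. Each replicate had one of its 327 strongest regions at 20 of them. The groups of copies upstream of eel-1, from which the word was taken, are counted among the 75. No like share was counted for other repeats, and a link of the word to the signal was not tested.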
